A study of Mus musculus with 4 samples.

Results

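The 10 amino acid transporter genes Slc3a2, Slc7a5, Slc7a6, Slc7a11, Slc7a1, Slc1a5, Slc1a4, Slc38a1, Slc38a2 and Slc6a9 were followed in group 2 innate lymphoid cells (ILC2s) of the mouse colon. They were listed by name with earlier results of these data known, so their counts and medians are descriptions. All 10 were found among the 55487 gene IDs of the deposited count table. ILC2s are tissue-resident lymphocytes without antigen receptors that secrete type 2 cytokines. The cells were sorted from the gut (the tissue label reads colon) and cultured with the cytokines IL-33, IL-25, IL-7 and IL-2. There were 2 control libraries with no further treatment named and 2 libraries from cells given FK866 for 16 h. FK866 blocks NAMPT, the enzyme that salvages nicotinamide into NAD+. The sources used here do not give mouse strain, sex, age, FK866 dose, any vehicle or the number of animals behind each library. Nothing in the labels ties replicates to different animals or cultures, and the p-values therefore reflect spread between libraries that may be technical.

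Amino acids do not cross the plasma membrane unaided, and each transporter family carries its own set. SLC3A2, also called CD98 heavy chain, carries no amino acid itself. It is the partner that brings SLC7 light chains to the surface, among them LAT1 (Slc7a5), which imports leucine and other large neutral amino acids in exchange for glutamine, y+LAT2 (Slc7a6), which exchanges cationic for neutral amino acids, and xCT (Slc7a11), which imports cystine against glutamate. CAT1 (Slc7a1) carries arginine and lysine without a heavy chain. ASCT1 (Slc1a4) and ASCT2 (Slc1a5) exchange small neutral amino acids, with glutamine a main substrate of ASCT2, while SNAT1 (Slc38a1) and SNAT2 (Slc38a2) take up glutamine and alanine with sodium, and GlyT1 (Slc6a9) takes up glycine. Activated lymphocytes depend on such uptake for growth, and several of these genes are known targets of ATF4, the transcription factor of the amino acid response.

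The libraries held between 27617750 and 37841233 gene counts. Genes were tested with the quasi-likelihood test of edgeR over 19194 genes that passed a filter on low counts, and calls were made where the p adjusted by Benjamini-Hochberg was below 0.05. FK866 replicate 2 stood apart, with 22461 gene IDs reaching 10 counts where the remaining libraries had 17152 to 18667. ILC2 markers were all detected, with Gata3 between 699 and 1082 CPM (counts scaled to library size with the TMM factor of each library) and Il1rl1 between 157 and 307 CPM. Of 14 ILC2 markers 1 was called higher and 5 lower (7.14% and 35.7%, beside 5.31% and 7.89% of all tested genes). Their median log2 fold change was -0.48. Both FK866 libraries lay below both controls in 9 markers and above in 2, beside 29.3% and 28.4% of all tested genes. The markers summed to 6874 and 7061 CPM in controls and 6108 and 5215 CPM in FK866. Of markers of other cells, the T cell list summed to 19.8 to 21.2 CPM in every library, and the mast cell list did not exceed 1.13 CPM. The B cell list summed to 31.6 and 34.8 CPM in controls and 19.2 and 25.2 CPM in FK866, although the median log2 fold change of its 3 tested genes was 1.01. The epithelial list summed to 42.3 and 55.1 against 27.3 and 39.9 CPM, nearly all of it Epcam, with Krt8 at 0 in all 4 libraries and a median of 0.32. The NK and ILC1 list summed to 6.55 and 8.93 against 3.34 and 6.29 CPM, with a median of -0.78. By edgeR 0 genes of these 5 lists were called, and 3 had an unadjusted p below 0.05. Of these, Cd79b and Epcam were lower and 1 further gene of the B cell list was higher. DESeq2 called 1 of the 3 (Cd79b). Of 3 ILC3 markers, Il23r rose from 1.05 and 1.29 to 6.08 and 3.62 CPM (log2 2.05, edgeR adjusted p = 0.0172), while Il22, at 265 and 147 against 214 and 75.0 CPM, was not called (log2 -0.51, adjusted p = 0.496). The part of these markers in the transporter values was not tested. In such bulk samples, fewer cells of a type and less RNA per cell cannot be told apart.

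Of the 10 transporters, 2 were called higher in FK866 and 0 were called lower, while 8 did not pass. Over all tested genes, 5.31% were called higher and 7.89% lower, 13.2% in all. The called members were the heavy chain gene Slc3a2 and the cystine transporter gene Slc7a11, which stand at opposite ends of expression. The controls alone would not have passed Slc7a11 through the low-count filter. Before adjustment, edgeR's p was below 0.05 for 5 members on the higher side and 1 on the lower side, and for 5370 genes in total. By DESeq2, 3 members were called higher (Slc3a2, Slc7a11 and Slc6a9) and 1 lower (Slc1a5), beside 11.9% higher and 15.2% lower of the 12496 genes to which it gave an adjusted p. The median log2 fold change of the 10 was 0.31, beside 0.03 for all tested genes. In 7 members both FK866 libraries lay above both control libraries, and in 1, Slc1a5, both lay below. Such separation is common here, since 28.4% of all tested genes were separated upward and 29.3% downward.

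The sequences upstream of the start sites of the called genes are shown for the amino acid response element, a known element of some ATF4 target genes. Whether ATF4 acted on the called genes was not tested. Promoter windows of RefSeq (GRCm38.p6) were matched by symbol for 7 of the 10 genes, with 11 windows between them. The element's core, TGATGNAA, was searched on both strands in the 250 bases before each start, and is in capitals below. The first sequence is chr3:50443614-50443733, the 120 bases before the start of Slc7a11. The second is chr19:8713898-8713957, the 60 bases before the RefSeq start of Slc3a2. That start lies inside the gene model used here, whose outermost start, at 8723369, was not searched. Both sequences are printed 5′ to 3′ on the minus strand.
Slc7a11: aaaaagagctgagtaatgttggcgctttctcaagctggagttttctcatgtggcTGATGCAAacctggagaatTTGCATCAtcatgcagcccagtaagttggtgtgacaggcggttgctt
Slc3a2: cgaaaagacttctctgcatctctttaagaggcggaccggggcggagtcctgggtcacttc

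The Slc7a11 window held 2 matches in opposite orientation, the first from 66 to 59 and the second from 47 to 40 bases before the start. Of 32851 promoter windows of the same length, 3.45% held at least 1 match and 13 windows, 0.0396%, held 2 or more. None of the 10 windows of the other 6 matched genes, Slc3a2, Slc7a1, Slc7a6, Slc1a4, Slc38a2 and Slc6a9, held the core. The E-box CACGTG, bound by MYC and related factors, was in 0 of the 11 windows and in 6.02% of all windows. The antioxidant response core TGACNNNGC was in 5 windows of 4 members (Slc7a1, Slc7a6, Slc38a2 and Slc6a9) and in 10.2% of all windows. A match, or the lack of one, describes the letters of these windows only. Bases after each start, introns among them, were not searched.

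**Figure D1:**
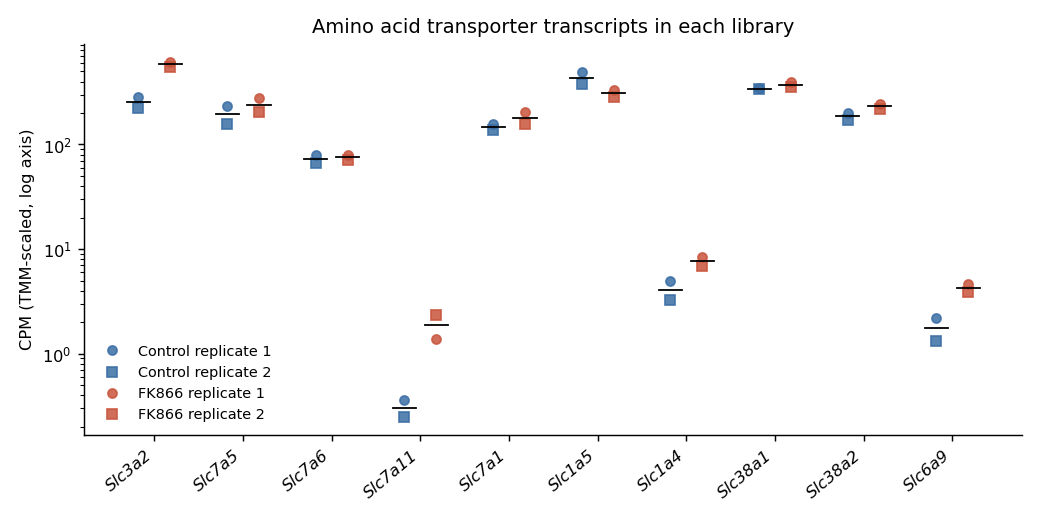
CPM of the 10 transporter genes on a log axis in each of the 4 libraries (points, blue for control and red for FK866, circles for replicate 1 and squares for replicate 2) with the mean of each group (bars). Slc3a2 lies at 548 to 618 CPM in FK866 against 223 to 287 CPM in controls, while 3 members, Slc1a4, Slc6a9 and Slc7a11, lie below 10 CPM in every library.

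Transcript of the heavy chain rose in FK866. Slc3a2 (ENSMUSG00000010095, mm10 chromosome 19, 8706882 to 8723369, minus strand) stood at 287 and 223 CPM in control replicates 1 and 2 and at 618 and 548 CPM in FK866 replicates 1 and 2. Both FK866 libraries were far above both controls. The level went from 255 ± 45.0 to 583 ± 49.4 CPM (SD, n = 2), a log2 fold change of 1.19 ± 0.15 (SE; edgeR adjusted p = 0.00317), or 2.29-fold with a 95% interval of 1.8 to 2.91. Under 12 other settings the log2 fold change stayed between 1.01 and 1.30 and the gene was called in all 12.

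LAT1 had the most transcript in these libraries among the 3 light chains followed. Slc7a5 (chromosome 8, 121881150 to 121907694, minus strand) was measured at 232 and 156 CPM in controls and at 276 and 204 CPM in FK866. The groups overlapped, because control replicate 1 was above FK866 replicate 2. Its log2 fold change of 0.31 ± 0.21 (SE) did not pass (edgeR adjusted p = 0.392), with a 95% interval of the fold from 0.888 to 1.73. Without control replicate 1 it was called higher (log2 0.52, adjusted p = 0.00897), and without FK866 replicate 1 the value was -0.021.

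Slc7a6, the y+LAT2 light chain (chromosome 8, 106168857 to 106198706, plus strand), stood at 79.0 and 66.1 CPM in controls and at 79.4 and 71.7 CPM in FK866. Its groups overlapped almost completely. The log2 fold change was 0.06 ± 0.15 (SE; edgeR adjusted p = 0.863), and the 95% interval of the fold, 0.818 to 1.32, leaves out a change as large as that of Slc3a2.

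xCT transcript was scarce in both groups. Slc7a11 (ENSMUSG00000027737, chromosome 3, 49892526 to 50443614, minus strand) was covered by 13 and 8 counts in control replicates 1 and 2 and by 37 and 80 counts in FK866 replicates 1 and 2, or 0.358, 0.245, 1.37 and 2.35 CPM. FK866 libraries were higher, with replicate 2 the highest. The low-count filter asks for 0.309 CPM in 2 libraries, and control replicate 2 lay under that level. The controls alone would not have passed Slc7a11, so its testing rests on its FK866 libraries. The log2 fold change was 2.61 ± 0.66 (SE; edgeR adjusted p = 0.0342), 6.10-fold with a wide 95% interval of 2.16 to 17.3. The call was lost without FK866 replicate 2 (log2 2.19, adjusted p = 0.197) and once a trend of fold change on transcript length and GC content was taken out (2.29, adjusted p = 0.0519). Over all 8142 tested genes with a mean log2 CPM under 1, where Slc7a11 lies, the median log2 fold change was 0.31 and 0.712% were called higher. Among markers of other cells at like levels, the myeloid list (5 genes) summed to 1.32 and 2.70 CPM in controls and 5.08 and 4.21 CPM in FK866, with C1qa at 0 in all libraries but control replicate 2, and the fibroblast list (4 genes) to 2.23 and 1.84 against 3.45 and 4.09 CPM. Of their genes 0 were called by edgeR or DESeq2 and 1 (Adgre1, higher) had an unadjusted p below 0.05 by edgeR, while Csf1r of the myeloid list had a log2 fold change of -0.08. Their part in the Slc7a11 value was not tested.

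Among the Slc7a11 transcripts there is also a stretch of 373 nt that is 96.2% identical to the α-tubulin gene Tuba1b, so reads of tubulin may be counted for Slc7a11. Tuba1b had 21578 and 18754 counts in controls and 7959 and 9645 in FK866. Tuba1a and Tuba1c, with 96.0% and 95.4% identity over as many bases, were lower in FK866 in the same way. Gm14150 (96.5%) had 110 and 104 counts against 30 and 52, while AC157548.1 (95.4%) had 3 and 8 against 11 and 10. The part of such reads in the Slc7a11 value was not tested.

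**Figure D2:**
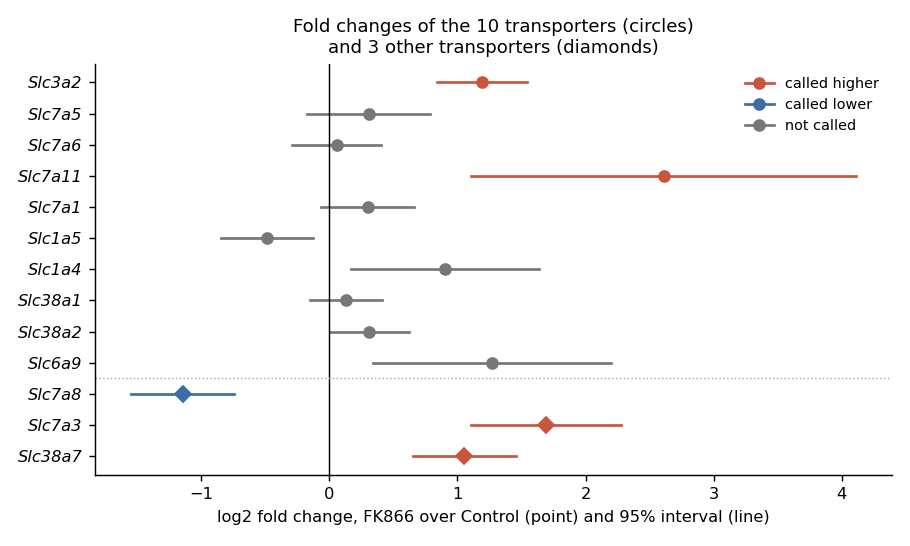
Log2 fold change of FK866 over control (points) with its 95% interval (lines, not adjusted for the number of genes) for the 10 transporters (circles) and 3 further transporter genes (diamonds), coloured by whether the gene was called. Slc3a2 (1.19) and Slc7a11 (2.61) are the members called higher, and Slc7a8 (-1.14) is called lower.

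LAT2, encoded by Slc7a8, is another partner of SLC3A2 with substrates close to those of LAT1. It was taken from a list of 30 other cell-surface amino acid transporters. Slc7a8 stood at 215 and 178 CPM in controls and at 102 and 76.0 CPM in FK866, with no overlap. It fell by 1.14 ± 0.18 (SE) on the log2 scale (edgeR adjusted p = 0.00598), a call kept under all 12 other settings. Per kilobase of transcript the controls held Slc7a5 and Slc7a8 in nearly equal amounts, with a ratio of 1.25 and 1.02, and the FK866 libraries a ratio of 3.14 and 3.13. The ratios did not overlap, and the exact permutation test (two-sided, n = 2 against 2) gave p = 0.333, the smallest that 2 libraries against 2 can give. Slc7a8 was named because it was called lower, so its ratio is a description.

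Heavy chain transcript grew relative to its light chains. Per kilobase, Slc3a2 over the sum of Slc7a5, Slc7a6 and Slc7a11 was 1.17 and 1.28 in controls and 2.2 and 2.51 in FK866, a difference of 0.94 on the log2 scale. Both FK866 ratios were above both control ratios (exact permutation p = 0.333, two-sided, the smallest possible). The summed light chains themselves overlapped between the groups. They were at 87.1 and 62.0 CPM per kb in controls and 99.8 and 77.5 CPM per kb in FK866. The ratio is thus a description that largely restates the higher Slc3a2, and its separation is no further result. With Slc7a7, Slc7a8 and Slc7a10 added to the sum, a choice made after seeing the data, the ratio was 0.728 and 0.749 in controls and 1.76 and 2.02 in FK866. Transcript ratios say nothing of protein at the surface.

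**Figure D3:**
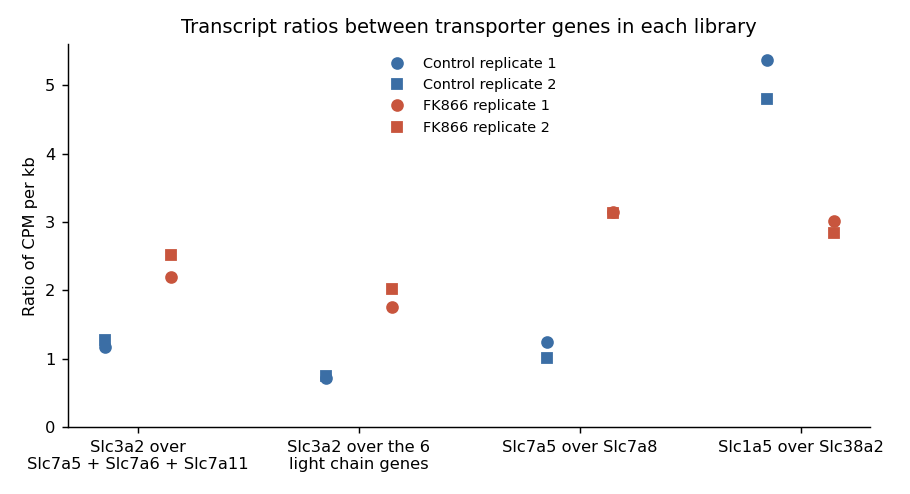
Ratios of CPM per kilobase of transcript between transporter genes in each library (blue control, red FK866, circles replicate 1, squares replicate 2). Slc7a5 over Slc7a8 is 1.02 and 1.25 in controls and 3.13 and 3.14 in FK866, and Slc1a5 over Slc38a2 is 4.79 and 5.37 against 2.85 and 3.02.

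CAT1 supplies arginine, the substrate of arginase 1, which ILC2s express. Slc7a1 (chromosome 5, 148327410 to 148399904, minus strand) was at 156 and 137 CPM in controls and at 204 and 157 CPM in FK866. The FK866 libraries were above the controls, but replicate 2 by about 1 CPM only. The log2 fold change was 0.30 ± 0.16 (SE; edgeR adjusted p = 0.265), and 0.03 once that trend was taken out. Its transcript is long (7179 nt), and the part of length in this value was not tested.

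CAT3, encoded by Slc7a3, is a related arginine transporter and was the 1 gene called higher in the list of 30. It rose from 5.95 and 4.48 CPM to 18.4 and 15.4 CPM, by 1.69 ± 0.26 (SE) on the log2 scale (edgeR adjusted p = 0.00580). Per kilobase, Slc7a3 remained below Slc7a1, at 6.15 ± 0.767 against 25.2 ± 4.61 CPM per kb in FK866 (SD, n = 2). CAT2, encoded by Slc7a2, was at 2.48 and 0.521 CPM in controls and at 6.64 and 2.59 CPM in FK866 and did not pass (edgeR adjusted p = 0.175).

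Of the exchangers for small neutral amino acids, the abundant and the scarce member differed in direction. Slc1a5 (ENSMUSG00000001918, chromosome 7, 16781340 to 16798274, plus strand), the ASCT2 gene, was at 491 and 379.6 CPM in controls and at 336 and 287 CPM in FK866. Both FK866 libraries lay below both controls. The log2 fold change of -0.48 ± 0.16 (SE) did not pass (edgeR adjusted p = 0.0790), with a 95% interval of the fold from 0.558 to 0.917 before adjustment. It was called lower by DESeq2 (-0.46, adjusted p = 0.0435), without control replicate 2 (-0.66, edgeR adjusted p = 0.000162) and without FK866 replicate 1 (-0.70, edgeR adjusted p = 0.0108).

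Slc1a4, the ASCT1 gene (chromosome 11, 20302180 to 20332713, minus strand), had 180 and 105 counts in controls and 226 and 236 counts in FK866, or 4.95, 3.22, 8.38 and 6.94 CPM. FK866 libraries were above controls without overlap. Its log2 fold change of 0.90 ± 0.32 (SE) did not pass (edgeR adjusted p = 0.103), though it did without control replicate 1 (1.15, adjusted p = 0.0412) and with a stricter filter that tests fewer genes (1.00, adjusted p = 0.0451).

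The sodium-coupled glutamine transporters lie side by side on chromosome 15, Slc38a1 from 96571418 to 96642913 and Slc38a2 from 96687392 to 96699730, both on the minus strand. Slc38a1 (SNAT1) stood at 346 and 338 CPM in controls and at 392 and 355 CPM in FK866. The libraries barely separated, with a log2 fold change of 0.13 ± 0.12 (SE; edgeR adjusted p = 0.563) and a 95% interval of the fold from 0.900 to 1.33. Once the trend on length and GC content was taken out the value was -0.16. The Slc38a1 transcript is long (7266 nt), and the part of length in this value was not tested.

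Slc38a2 (SNAT2), the form that cells short of amino acids are known to raise, was at 199 and 173 CPM in controls and at 242 and 220.1 CPM in FK866. The FK866 libraries were above the controls, and the log2 fold change of 0.31 ± 0.14 (SE) did not pass (edgeR adjusted p = 0.173). It was called with the stricter filter (0.41, adjusted p = 0.0265), and its value was 0.11 once that trend was taken out. The ratio of Slc1a5 to Slc38a2 per kilobase, not planned beforehand, was 5.37 and 4.79 in controls and 3.02 and 2.85 in FK866. In both FK866 libraries Slc1a5 lay below both controls and Slc38a2 above both. Their ratio could therefore not overlap, and its separation adds nothing to the values of the 2 genes.

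Slc6a9, the glycine transporter gene (chromosome 4, 117834506 to 117875198, plus strand), had 79 and 43 counts in controls and 124 and 131 in FK866, or 2.17, 1.32, 4.6 and 3.85 CPM. The groups did not overlap. The log2 fold change of 1.27 ± 0.41 (SE) did not pass (edgeR adjusted p = 0.0758), and it was called without control replicate 1 (1.57, adjusted p = 0.0361), with the stricter filter (1.37, adjusted p = 0.0279) and by DESeq2 (1.30, adjusted p = 0.0476). For this gene 30.2% of the exon bases overlap genes on the other strand (B4galt2, Ccdc24 and Gm17114), whose reads cannot be told apart here.

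Compared per kilobase of the longest transcript, the order of the members in controls began with Slc1a5 at 155 ± 28.1 CPM per kb, followed by Slc3a2 at 90.6 ± 16.0, Slc7a5 at 55.1 ± 15.3, Slc38a1 at 47.1 ± 0.699 and Slc38a2 at 30.4 ± 3.10 CPM per kb (SD, n = 2). Slc7a5 and Slc38a1 did not differ beyond their spread. Slc7a1 at 20.4 ± 1.9 and Slc7a6 at 19.3 ± 2.44 CPM per kb were also within their spread of each other, and Slc1a4, Slc6a9 and Slc7a11 came last at 1.04, 0.502 and 0.0327 CPM per kb. In FK866 the first places changed, with Slc3a2 at 207 ± 17.5 and Slc1a5 at 111 ± 12.1 CPM per kb, and the other 8 stood in the same order.

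The summed level of the 10 genes was 468 and 372 CPM per kb in controls and 565 and 485 CPM per kb in FK866. Slc3a2 made up 21.8% and 21.3% of it in controls and 38.9% and 40.2% in FK866, and Slc1a5 37.4% and 36.4% against 21.2% and 21.1%. The shares of the 10 sum to 100%, so a larger share of one gene lowers those of the others. For these 2 genes the replicates of a group lay closer together in share than in level.

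**Figure D4:**
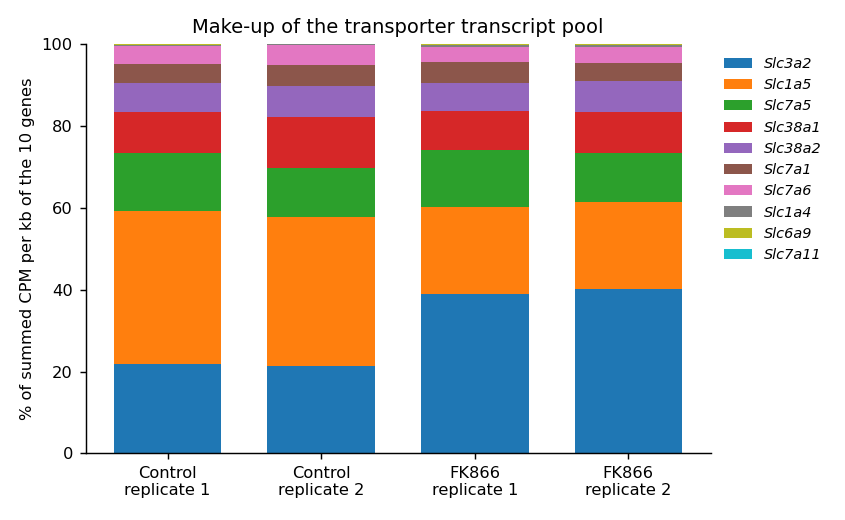
Share of each of the 10 genes in their summed CPM per kilobase, as stacked bars from 0 to 100% for each library. Slc3a2 takes 21.3% and 21.8% in controls and 38.9% and 40.2% in FK866, and Slc1a5 36.4% and 37.4% against 21.1% and 21.2%.

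Replicates of a group differed in the same direction for most members. Control replicate 1 was above control replicate 2 in 10 of 10 members and FK866 replicate 1 above FK866 replicate 2 in 9 of 10, Slc7a11 being the exception. Over all tested genes these shares were 48.3% and 53.0%. The source of this difference between libraries was not tested.

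Most other cell-surface amino acid transporters were scarce or did not pass. Of the list of 30, 22 passed the low-count filter, 1 was called higher (Slc7a3), 1 lower (Slc7a8) and 20 did not pass, with a median log2 fold change of 0.26. These calls were 4.55% of the tested genes in each direction, beside 5.31% higher and 7.89% lower over all tested genes. The taurine transporter gene Slc6a6 was the most abundant of those not called, at 151 and 176 CPM in controls and 166 and 140.3 CPM in FK866. Of 12 transporters of lysosomes and other internal membranes, 11 were tested, 1 was called higher and 0 lower, with a median of 0.15. The called gene was Slc38a7 (SNAT7), which exports glutamine and asparagine from lysosomes, at 25.7 and 28.6 CPM in controls and 62.9 and 49.96 CPM in FK866 (log2 1.05 ± 0.18, SE; edgeR adjusted p = 0.00785). By edgeR 0 of the 11 had an unadjusted p below 0.05 on the lower side, and DESeq2 called 2 higher and 0 lower.

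Genes that report amino acids to mTORC1, the kinase complex that couples nutrients to growth, were called in both directions. Of 27 tested, 6 (22.2%) were called higher and 3 (11.1%) lower, beside 5.31% and 7.89% of all tested genes. The median log2 fold change was 0.00. Both FK866 libraries lay above both controls in 9 genes and below in 9, beside 28.4% and 29.3% of all tested genes. Folliculin (Flcn, 1.44) and its partners Fnip1 (1.54) and Fnip2 (1.20), which act on Rag GTPases, rose, and the Rag GTPase gene Rraga fell (-1.07). The arginine sensor gene Castor1 fell (-1.17) and its homologue Castor2 rose (1.23), both named here after their values were seen.

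Of 26 ATF4 pathway genes outside transport, 12 (46.2%) were called higher and 1 (3.85%, the serine synthesis gene Psph) lower. Over all tested genes these shares were 5.31% and 7.89%. The median log2 fold change of the list was 0.56, and 13 of its genes did not pass. Psat1 (0.01), Phgdh (-0.19) and Shmt2 (-0.27), named after their values were seen, were among those 13. Among those called higher were mitochondrial PEPCK (Pck2, 1.68), the eIF2α phosphatase subunit Ppp1r15a (1.36), the alanine transaminase gene Gpt2 (1.98) and the transcription factor Atf3 (2.11). Without FK866 replicate 1, 8 were called higher, and Psph (-0.59, edgeR adjusted p = 0.0499) lay close to the threshold, with 0 genes of the list called lower under 9 of 12 other settings. Atf4 itself went from 207 and 202 CPM to 314 and 263 CPM (log2 0.50 ± 0.14, SE; edgeR adjusted p = 0.0458), a call lost with no filter (adjusted p = 0.281) and without FK866 replicate 1 (adjusted p = 0.523). That list was chosen with earlier results of these data known, and its count is not independent of them.

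Over all tested genes, 5.31% were called higher and 7.89% lower. Of 8 factors listed as acting on the transcription or surface amount of transporters of any kind, 4 (50%) were called higher and 1 (12.5%) lower. Besides Atf4 they were Nfe2l2 (0.95), the oxidative stress factor known to act on Slc7a11, the kinase gene Sgk1 (1.87) and the α-arrestin gene Txnip (2.58), with the ubiquitin ligase gene Nedd4 lower (-0.45, edgeR adjusted p = 0.0458). Under 5 of 12 other settings, the 3 other scalings among them, 0 factors were called lower. Myc, a known activator of Slc7a5 and Slc1a5, was at 409 and 348 CPM in controls and 316 and 261 CPM in FK866 and did not pass (log2 -0.39, edgeR adjusted p = 0.120). An antisense gene covers 19.4% of the Txnip exon bases. No action of the 8 factors on the transporters followed here was tested.

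**Figure D5:**
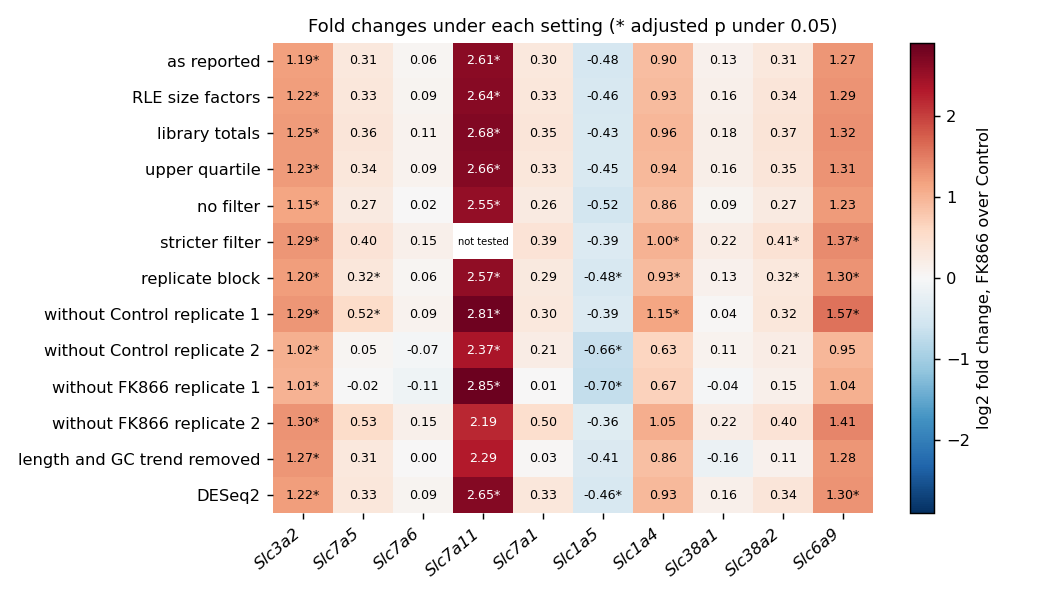
Log2 fold change (FK866 over control) of each transporter as reported and under 12 other settings, coloured from blue (lower) to red (higher), with an asterisk where the adjusted p was under 0.05. Slc3a2 is called in every setting (1.01 to 1.30), Slc7a11 was not tested under the stricter filter, and Slc7a6 is called in none (-0.11 to 0.15).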

How the data were processed

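TRIzol was used for RNA, SMART-Seq HT for full-length cDNA and Nextera XT for libraries, per the labels' protocols; this chemistry does not mark the strand. The submitters' processing notes name HISAT2 2.2.1, cutadapt 1.9 and the mouse build mm10. The deposited table holds the authors' raw read counts per Ensembl gene ID, a unit read from the values. How the reads were counted, and with which annotation and rule for multi-mapping reads, is not given in the sources used here. GENCODE M21 gave names, positions and lengths for 55227 of 55487 IDs, and promoter windows came from RefSeq (GRCm38.p6).

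All 4 libraries were fitted with the quasi-likelihood functions glmQLFit and glmQLFTest of edgeR 4.0.16 (R 4.3.3; two-sided, treatment as the only term, TMM scaling, and filterByExpr at its minimum count of 10, total 15). Only the transporter and listed genes are printed, with p-values adjusted over all 19194 genes. SE was derived as the absolute log2 fold change over the root of F. CPM per kb divides by the longest transcript. Sampling noise alone did not account for replicate differences: chi-square per degree of freedom was 18.2 in controls and 10.5 in FK866. The members and lists were chosen with earlier results of these data known. All 162 list entries matched. The naming rule took all 10 members and, from each other list, up to 4 called genes with the smallest adjusted p, or, with no called gene, the 2 with the highest mean level; genes named outside it were chosen after their values were seen. Near-identical transcripts were sought with BLAST 2.17.0 (at least 300 nt and 95% identity). On simulated counts over 17585 genes for FK866 against control, the test recovered 56 of 100 genes set to 2-fold and 94 of 100 set to 4-fold. Of its 164 calls, 14 were wrong. The 200 changed genes all had a mean log2 CPM above 2, so these rates do not cover genes as scarce as Slc7a11 and Slc6a9. In the data 13.2% of genes were called, a larger share than was changed in the simulation. Alternatives were other scaling (RLE, library totals, upper quartile), no filter, a minimum count of 100, DESeq2 1.42.0, a replicate block, leaving out each library, and offsets that remove a trend on length and GC content (mgcv 1.9.3). The values of 1 marker gene are not reported here.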

Additional observations from a re-analysis of the deposited data

How the results depend on the processing

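Of the transporters, Slc3a2 kept its call under every alternative, Slc7a1, Slc7a6 and Slc38a1 were called under none, and Slc7a11 lost its call under 2 of 11. Members called higher numbered 2 as reported, 4 with the stricter filter, 6 with the replicate block, 1 once the trend on length and GC content was taken out, and 1 to 5 as each library was left out (5 without control replicate 1, 1 without FK866 replicate 2). Members called lower numbered 0 as reported, 1 (Slc1a5) with the replicate block and by DESeq2, and 0 to 1 as each library was left out. Of all genes, 1020 were called higher and 1514 lower, and 1490 and 1903 by DESeq2. The stricter filter gave 1808 higher (17.5% of the genes it tested), the replicate block 2197 higher and 3059 lower (11.4% and 15.9%), and leaving out each library 661 to 1457 higher and 828 to 2462 lower. When 1 library of a group is left out, the lone sample is assumed to vary like the other group. The sign reversed for Slc7a5 without FK866 replicate 1 (-0.021; 0.53 without FK866 replicate 2), Slc7a6 without control replicate 2 (-0.07) or FK866 replicate 1 (-0.11; 0.15 without FK866 replicate 2), and Slc38a1 without FK866 replicate 1 (-0.040; 0.22 without FK866 replicate 2) or with the trend taken out (-0.16), each a value that was not called; the cause was not tested. The log2 difference in the ratio of heavy to light chains, 0.94, was 1.35 with Slc7a7, Slc7a8 and Slc7a10 added. Same-numbered replicates share only a number in the labels; their deviations from the group means correlated at 0.37 across genes. The replicate block called Slc6a9, Slc7a5, Slc1a4 and Slc38a2 higher besides Slc3a2 and Slc7a11. The median log2 fold change of all genes was 0.24 with no filter and 0.19 without control replicate 2, against 0.03 as reported.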
